A study of Mus musculus with 40 samples.

Results

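The 10 genes for enzymes that act on inhaled or absorbed carcinogens were followed through a mouse model of lung squamous carcinogenesis: the cytochrome P450 genes Cyp2f2, Cyp1a1, Cyp1b1, Cyp2e1, Cyp2b10 and Cyp4b1, the aldehyde dehydrogenase genes Aldh1a1 and Aldh3a1, the flavin-containing monooxygenase gene Fmo2 and the microsomal epoxide hydrolase gene Ephx1. The genes were chosen by name and not by a measured value, but with earlier results of these data known. All 10 were in the table of 37310 genes, and all 10 were among the 15630 genes that passed the filter on low values. Female mice of the A/J and SWR/J strains received the chloroethylating nitrosourea NTCU on the skin, or acetone vehicle, and RNA was sequenced from tissue cut out by laser capture microdissection (LCM) or from fresh frozen sections of whole lung. The age of each animal at collection is not given in the sources used here, and neither is which LCM and whole lung samples came from the same mouse, so that p-values may in part measure technical spread.

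Of 40 samples, the 25 with the passed label were compared, 13 LCM and 12 whole lung. The 7 normal samples (3 A/J and 4 SWR/J) are labelled with 0 µmol NTCU in total. The 5 samples with mild dysplasia were all from SWR/J mice at 15 µmol. The 9 samples with moderate/severe dysplasia came from A/J mice at 14 µmol (3) or from SWR/J mice at 25 µmol (2) or 30 µmol (4). The 2 severe dysplasia samples were SWR/J at 50 µmol, and the 2 samples of carcinoma in situ or squamous cell carcinoma (CIS/SCC) were A/J at 20 µmol. The last 3 grades are called high-grade here (n = 13). Dose, strain and grade were therefore tied to each other, and the mild and the severe grades had no A/J sample. Replicate numbers below only name samples within a grade.

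Carcinogens that enter the lung are often not reactive until they are oxidised. The P450 enzymes and Fmo2 carry out that first, oxidising step, which can make a compound easier to remove or turn it into an electrophile that binds DNA. Ephx1 adds water to epoxides, the aldehyde dehydrogenases oxidise aldehydes to acids, and glutathione, sulfate or glucuronic acid is then attached by other enzymes. In the mouse airway much of this capacity sits in club cells, the secretory cells of the bronchioles, which carry abundant smooth endoplasmic reticulum. Cyp1a1 and Cyp1b1 are induced through the aryl hydrocarbon (Ah) receptor, which pairs with Arnt and binds DNA elements with the core GCGTG. Cyp2b10 is the classic target of the nuclear receptor CAR.

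The promoter stretches of Cyp1a1 and Cyp1b1 and of Aldh1a1 with its close copy are shown as background. Induction of the Cyp1 genes was not tested. Stretches before the start site are not part of the transcript, so they do not show whether reads of Aldh1a1 can be told from those of its close copy. RefSeq promoters on GRCm38.p6, windows of 300 bases from 250 bases before the start site to 50 bases after its first base, were found for 9 of the 10 genes, the exception being Aldh3a1. The core GCGTG was searched on both strands. It occurred once in the window of Cyp1a1, once in that of Cyp1b1 and at 2 positions in that of Cyp2b10, against 32.4% of all 32851 promoters with at least 1 match, and the longer TNGCGTG, which contains the core, had no match in the windows of the 9 genes and occurred in 5.07% of all. In the lines for Cyp1a1 (chr9:57697513-57697612, plus strand) and Cyp1b1 (chr17:79715062-79715161, minus strand), the 100 bases just before the start site are written 5′ to 3′ on the gene's strand, and capitals mark the core, which in Cyp1b1 lies on the opposite strand.
Cyp1a1: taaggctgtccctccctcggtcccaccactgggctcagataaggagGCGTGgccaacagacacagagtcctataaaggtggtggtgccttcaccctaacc
Cyp1b1: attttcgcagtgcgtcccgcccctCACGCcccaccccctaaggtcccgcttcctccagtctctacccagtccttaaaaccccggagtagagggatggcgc

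Aldh1a1 and the neighbouring Aldh1a7, a second gene for a cytosolic aldehyde dehydrogenase, are near copies. Their promoter stretches on GRCm38.p6, chr19:20601868-20601967 on the plus strand and chr19:20727557-20727656 on the minus strand, were the same at 94 of 100 bases, and capitals mark the 6 bases that differ.
Aldh1a1: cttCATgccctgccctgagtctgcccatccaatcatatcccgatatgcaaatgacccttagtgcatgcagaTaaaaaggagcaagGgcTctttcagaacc
Aldh1a7: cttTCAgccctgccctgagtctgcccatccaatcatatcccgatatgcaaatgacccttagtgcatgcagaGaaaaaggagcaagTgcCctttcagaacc
Of the 50-base windows of the Aldh1a1 transcript, the read length used, 7.53% also occurred in Aldh1a7. The share was 7.58% for Cyp2b10, mostly with Cyp2b13, 3.66% for Cyp1a1, all with Cyp1a2, and 2.42% for Cyp2e1. The windows of the other 6 genes were not found in another gene. Reads in shared windows were divided among genes by the authors' software, so a small part of these 4 genes' counts is uncertain.

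On the NCBIM37 assembly, which is mm9, the genes lie at chr7:27904928-27918679 (Cyp2f2, plus strand), chr9:57545420-57551629 (Cyp1a1, plus), chr17:80106234-80114401 (Cyp1b1, minus), chr7:147949638-147960874 (Cyp2e1, plus), chr7:26682639-26711643 (Cyp2b10, plus), chr4:115297303-115320322 (Cyp4b1, minus), chr19:20676451-20717952 (Aldh1a1, plus), chr11:61021039-61031923 (Aldh3a1, plus), chr1:164804448-164828857 (Fmo2, minus) and chr1:182906286-182951035 (Ephx1, minus). The annotation gives each of them as protein coding.

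The expected counts of the 25 samples summed to between 2667390 and 16534700 (median 9075420), and the median transcript integrity number (TIN, a measure of RNA degradation in which higher is better) ran from 21.7 to 75.1. Some libraries stood apart or held transcripts that their label does not describe. Normal replicate 8 (whole lung, SWR/J) and severe replicate 2 (LCM, SWR/J) stood apart in the overall profile. Moderate/severe replicate 13 (whole lung, SWR/J) held liver transcripts at 9673 CPM (reads of a gene scaled to the size of its library) summed over 4 markers, with albumin (Alb) alone at 7868 CPM, against 0.158 to 168 CPM for the same sum in the other 24 samples. Normal replicate 7 (whole lung, SWR/J) had the highest sum over 8 squamous markers of all 25 samples, 105938 CPM, although its label is normal. The T cell markers, 5 genes, summed to 97.5 to 4016 CPM in normal, 10.8 to 133 CPM in mild and 3.41 to 2402 CPM in high-grade samples. For 2 of the 25 samples, normal replicate 10 and mild replicate 5, the description and the grade label disagreed. The titles of mild LCM replicates 2 and 5 differ only by a letter at the end, and whether they came from the same mouse is not given. The normal samples rich in T cell markers were not left out as a set.

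Per length of exon, Cyp2f2 was the highest of the 10 genes. Its mean was 2497 CPM per kilobase in LCM and 608 CPM per kilobase in whole lung samples. Aldh1a1 followed with 786 and 228 CPM per kilobase, Cyp4b1, which activates ipomeanol and aromatic amines, with 199 and 78.0, and Ephx1 with 173 and 88.3 (LCM before whole lung). The next were Cyp2b10 with 76.3 and 52.9, Aldh3a1 with 75.5 and 55.0, Fmo2 with 44.5 and 37.7, and Cyp2e1 with 37.6 and 37.9 CPM per kilobase. Cyp1b1, at 2.45 and 3.49, and Cyp1a1, at 0.611 and 0.913, were the lowest. This order is that of the LCM samples. In whole lung samples Ephx1 was above Cyp4b1, Aldh3a1 above Cyp2b10 and Cyp2e1 above Fmo2. Neighbours such as Cyp2b10 and Aldh3a1 differed by less than the spread between samples.

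On the log2 CPM scale (library sizes normalised with TMM, prior count 2), which was used for all levels below, single genes varied widely between samples. Cyp2f2, which oxidises naphthalene and styrene in club cells, ran from 6.32 to 13.74 with a median of 10.58, which is 79.5 to 13650 CPM. Cyp2e1, the ethanol-inducible enzyme that also activates small nitrosamines, had the widest range, -1.64 to 8.60. Aldh1a1 ran from 5.15 to 11.74, Aldh3a1 from 2.34 to 8.83 and Cyp4b1 from 4.65 to 9.87. Fmo2 (4.80 to 8.98), Ephx1 (5.60 to 9.59) and Cyp1b1 (2.01 to 5.86) spanned less. Cyp1a1, which oxidises polycyclic aromatic hydrocarbons, was near the limit of detection, below 1 CPM in 12 of 25 samples.

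**Figure D1:**
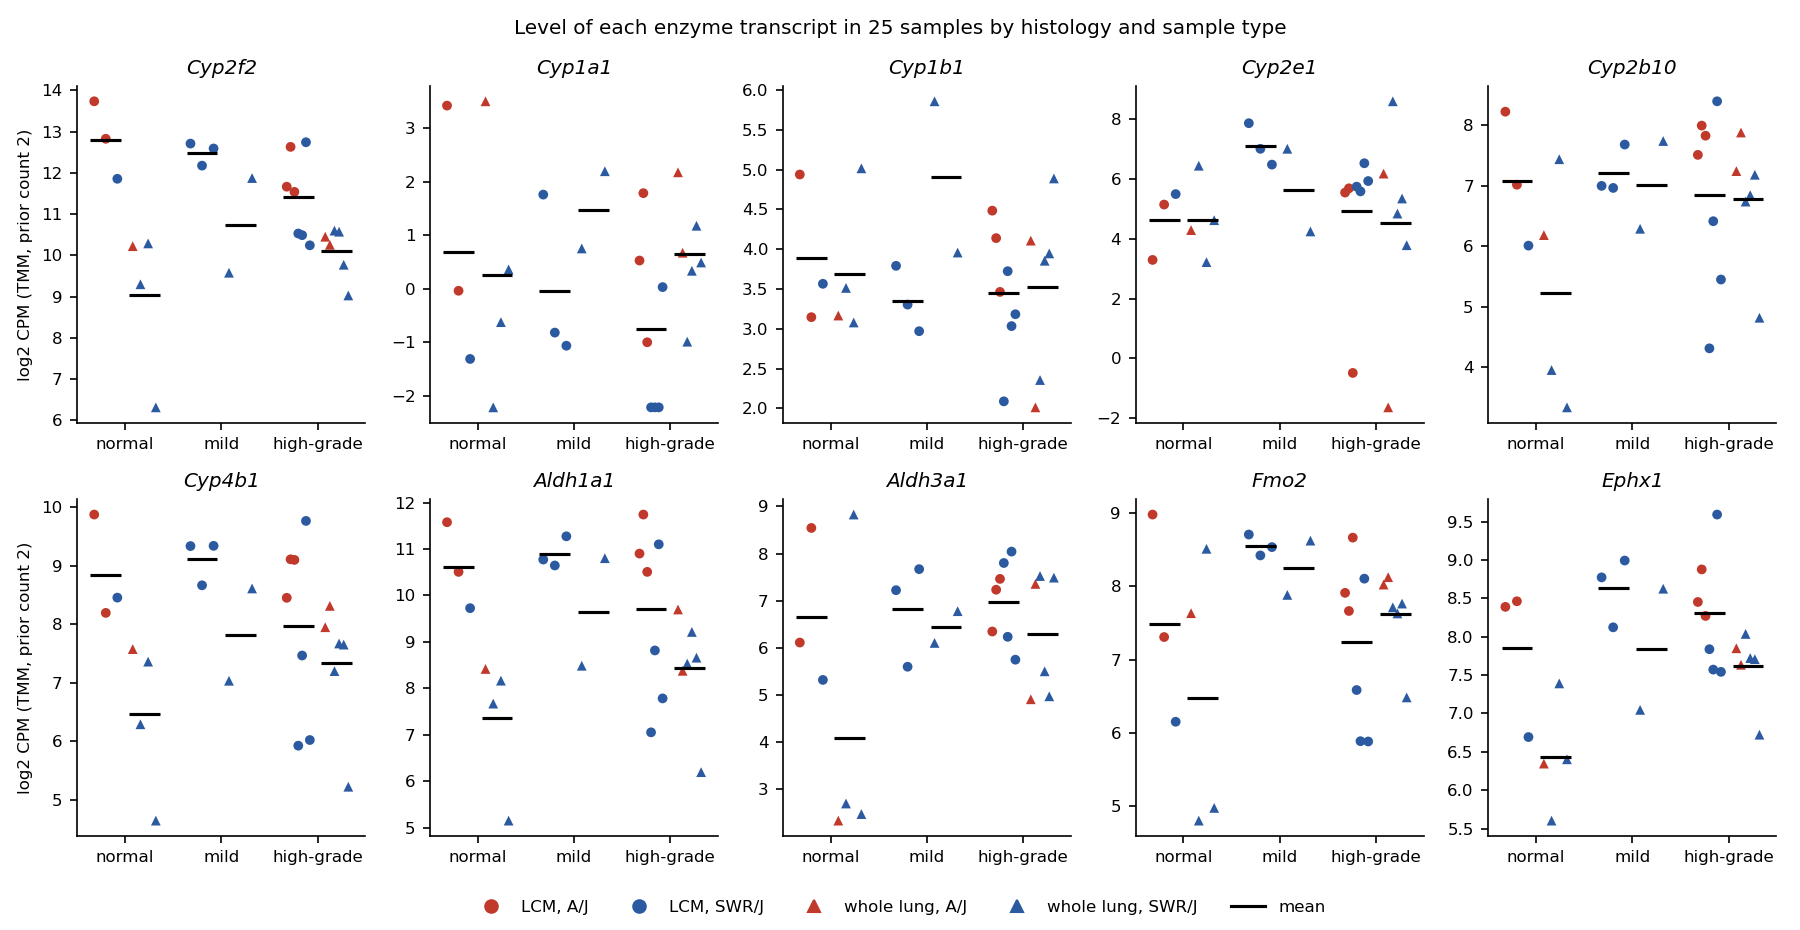
Level of each of the 10 genes in log2 CPM (vertical axes) in the 25 samples by histology (horizontal axis), 1 point per sample, with circles for LCM, triangles for whole lung, red for A/J, blue for SWR/J and a line at each mean. Cyp2f2 lies between 10.25 and 13.74 in LCM and between 6.32 and 11.88 in whole lung samples, and Cyp1a1 is the lowest gene with a range of -2.22 to 3.50.

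The comparison of LCM with whole lung asked which of these enzymes were higher in tissue cut out by laser capture. Cyp2f2, Aldh1a1 and Ephx1 were higher in LCM samples, and none of the 10 genes was lower under the test. The model was edgeR's quasi-likelihood test with histology in 3 groups, strain, sample type and median TIN as terms, and adjusted p-values are Benjamini-Hochberg values over the 15630 genes, with 0.05 as the threshold. At that threshold 14.6% of all genes were called between the sample types, with 5.65% of all genes called higher in LCM, against 3 of the 10 genes, all higher. Fewer cells of a type and less RNA per cell cannot be told apart in these samples.

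The lowest, median and highest Cyp2f2 values were 10.25, 12.18 and 13.74 in the 13 LCM samples and 6.32, 10.24 and 11.88 in the 12 whole lung samples. The 2 sets overlapped, with 7 of the 13 LCM samples above the highest whole lung sample. Among normal samples they did not overlap, with 11.86, 12.83 and 13.74 in LCM and 6.32, 9.30, 10.22 and 10.29 in whole lung. In the model Cyp2f2 was 1.84 log2 units higher in LCM (SE 0.43, adjusted p = 0.00873 by edgeR). The call held when each of the 25 samples was left out in turn, with values of 1.55 to 2.19. In the SWR/J samples alone it was 1.61 (adjusted p = 0.0948 by edgeR) and was not called.

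Aldh1a1, which makes retinoic acid from retinal and clears aldehydes from lipid peroxidation, had values of 7.05, 10.64 and 11.74 in LCM and 5.15, 8.45 and 10.80 in whole lung samples (lowest, median, highest). The ranges overlapped, and 5 LCM samples lay above all whole lung samples. The difference was 1.52 (SE 0.47, adjusted p = 0.0343 by edgeR). Ephx1 had 6.69, 8.39 and 9.59 in LCM and 5.60, 7.51 and 8.63 in whole lung samples, and also overlapped. It was 0.89 higher in LCM (SE 0.29, adjusted p = 0.0409 by edgeR). Both calls were less firm than that of Cyp2f2, since Aldh1a1 was called in 19 and Ephx1 in 14 of the 25 refits that left out 1 sample. Without moderate/severe replicate 5 the values were 1.18 (adjusted p = 0.123) and 0.62 (adjusted p = 0.137), and in the SWR/J samples alone 1.27 (adjusted p = 0.228) and 0.62 (adjusted p = 0.340), all by edgeR. Without mild replicate 5, whose labels disagree, they were 1.52 (adjusted p = 0.0503) and 0.87 (adjusted p = 0.0671), and without normal replicate 10 the Ephx1 value was 0.84 (adjusted p = 0.0634). Cyp2f2, Aldh1a1 and Ephx1 were called without normal replicate 7, without moderate/severe replicate 13 and without the 2 samples that stood apart.

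Cyp4b1 was 1.20 higher in LCM (SE 0.42) with an adjusted p of 0.0575 by edgeR and of 0.0139 by DESeq2, so its call depended on the tool. Its LCM samples lay between 5.93 and 9.87 and its whole lung samples between 4.65 and 8.61. Within the normal samples its 3 LCM values were all above the 4 whole lung values, and the same was true of Aldh1a1. The remaining genes did not pass the edgeR test, with differences of 0.83 for Aldh3a1, 0.37 for Cyp2b10, -0.06 for Fmo2, -0.04 for Cyp2e1, -0.41 for Cyp1b1 and -1.64 for Cyp1a1. For Cyp1a1 the adjusted p was 0.129 by edgeR and 0.0483 by DESeq2, with a DESeq2 value of -1.79. The median over the 10 genes was 0.60, beside -0.03 over all genes.

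**Figure D2:**
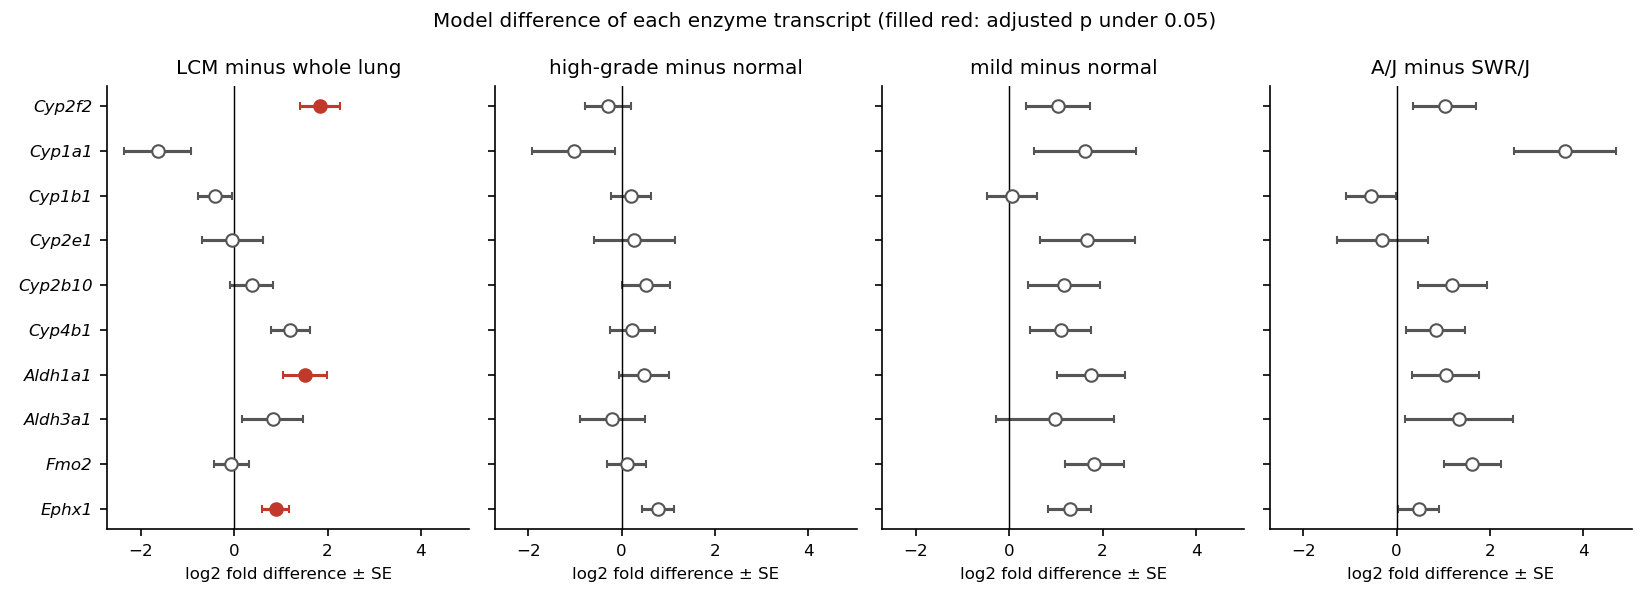
Model differences in log2 units (horizontal axis) with their standard errors for each of the 10 genes for LCM against whole lung, high-grade and mild dysplasia against normal, and A/J against SWR/J, with filled red points where the adjusted p is under 0.05. Cyp2f2 (1.84), Aldh1a1 (1.52) and Ephx1 (0.89) pass the threshold for LCM against whole lung, and no gene passes it for high-grade or mild dysplasia against normal or for A/J against SWR/J.

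Other enzymes of the same pathways, 95 tested genes in 9 lists, were higher in LCM for 20 genes and lower for 2, where 14.6% of all genes were called. The conjugating and reducing enzymes held most of these. Of 22 tested, 9 were higher, among them the sulfotransferase gene Sult1d1 by 2.91 and the carbonyl reductase genes Cbr1 by 0.76 and Cbr2 by 1.93. Of 23 glutathione transferase genes, 7 were higher, among them Gstm1 (adjusted p = 0.00468), Gsta3 by 1.97 and Mgst1 by 1.19. Of 13 other P450 genes tested, Cyp2a5, which activates tobacco nitrosamines, was higher by 2.74 (SE 0.59, adjusted p = 0.00613) and Cyp4a12b by 3.56, while Cyp4f18 was lower by 1.64 (log2 difference -1.64). The electron donor cytochrome b5 (Cyb5, 1 of 5 donors) was higher by 0.91, and the Ah receptor partner Arnt (1 of 5 of its axis) differed by -0.34. None of 17 other aldehyde dehydrogenase genes, of 3 other epoxide hydrolase genes or of 3 CAR and PXR axis genes passed the edgeR test. Aldh1a7 differed by 0.18 (SE 0.59, adjusted p = 0.867).

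Markers of cell types moved in the same comparison. All 6 endothelial markers, 3 of 6 alveolar type 2 markers (Sftpc by -3.44, Lamp3 by -3.48, Napsa by -1.63), 2 of 5 alveolar type 1 and 2 of 6 macrophage markers were lower in LCM, and so was the fibroblast marker Pdgfra. Of 8 club cell markers, Gabrp (2.04) and Scgb3a1 (3.03) were higher, and 3 of 8 ciliated markers and the basal marker Ngfr were higher. The other club markers were not called and went both ways. Their differences were 1.615 for Scgb3a2, 0.74 for Por, 0.55 for Cldn10, 0.18 for Aldh1a7, -0.28 for Scgb1a1 and -0.88 for Hp. Median sums were higher in LCM than in whole lung samples for fat (606 and 304 CPM), smooth muscle (1212 and 624 CPM) and fibroblast markers (1011 and 647 CPM). They were also higher for macrophage (4526 and 2341 CPM) and alveolar type 1 markers (1118 and 1016 CPM), although the genes counted above were lower. For skeletal muscle (159 and 426 CPM) and T cell markers (22.2 and 142 CPM) they were lower. LCM samples thus also held transcripts of cells other than epithelium. The 8 club markers summed to 1550 to 194712 CPM (median 16158) in LCM and to 787 to 70236 CPM (median 11584) in whole lung samples. None of the defining club markers was near 0: Scgb1a1 ran from 367 to 185155 CPM in LCM and from 600 to 60897 CPM in whole lung samples, and Scgb3a2 from 174 to 7137 and from 43.2 to 5081 CPM. The part of these markers in the difference of Cyp2f2, Aldh1a1 and Ephx1 was not tested.

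By Pearson's r, 5 of the 10 genes followed the club cell markers within each sample type, but by rank none of the 5 passed the threshold in LCM samples. The mean log2 CPM over the 8 markers was compared with each gene by Pearson's r and Spearman's rho with a permutation test (100000 resamples, two-sided, adjusted over the 20 relations). In whole lung samples (n = 12) r was 0.95 for Cyp2f2 and 0.94 for Aldh1a1 (permutation adjusted p = 0.000333 for both), and rho was 0.92 (adjusted p = 0.0006) and 0.84 (adjusted p = 0.00707, permutation test). Without the 2 samples farthest from the median of the markers, r was 0.87 and 0.82. Cyp4b1 had r = 0.90 (permutation adjusted p = 0.000333), rho = 0.82 (adjusted p = 0.00908) and r = 0.80 without those samples. These 3 relations held in whole lung samples without the samples at the ends.

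Cyp2b10 had r = 0.83 (permutation adjusted p = 0.00168) and rho = 0.80 (adjusted p = 0.00908) in whole lung samples, Fmo2 r = 0.76 (adjusted p = 0.00769) and rho = 0.71 (adjusted p = 0.0433), and Ephx1 r = 0.78 (adjusted p = 0.0064) and rho = 0.92 (adjusted p = 0.0006), all by permutation. Without the 2 farthest samples r was 0.72, 0.54 and 0.75. With the log2 of the summed CPM of the markers in place of their mean, rho was 0.58 for Cyp2b10 (permutation adjusted p = 0.102) and 0.50 for Fmo2 (adjusted p = 0.182), so these rank relations depended on how the markers were combined. In LCM samples (n = 13) r was 0.68 for Cyp2f2 (permutation adjusted p = 0.0203), 0.83 for Aldh1a1 (0.00287), 0.85 for Cyp4b1 (0.00168), 0.76 for Cyp2b10 (0.0064) and 0.73 for Fmo2 (0.0112). The ranks were less clear there. The rho of these 5 genes was 0.37, 0.56, 0.61, 0.58 and 0.63 in the same order, and its adjusted p by permutation was 0.283, 0.0904, 0.0676, 0.0829 and 0.059, none of them under the threshold. The raw permutation p of r ran from 0.00042 to 0.0112 for these 5 genes in LCM and from 2e-05 to 0.00346 for the 6 genes in whole lung samples. Without the 2 farthest LCM samples r was 0.40 for Cyp2f2, 0.63 for Aldh1a1, 0.68 for Cyp4b1, 0.49 for Cyp2b10 and 0.59 for Fmo2, so the Cyp2f2 relation in LCM rested in part on those samples.

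Ephx1 in LCM samples had r = 0.32 (permutation adjusted p = 0.329) and rho = 0.19 (adjusted p = 0.557). Aldh3a1 (r = -0.07 in LCM and 0.45 in whole lung), Cyp2e1 (-0.38 and -0.02) and Cyp1a1 (0.48 and 0.22) had adjusted p-values from 0.147 to 0.959 by permutation for r and from 0.166 to 0.783 for rho. Cyp1b1 had r = 0.60 (permutation adjusted p = 0.0459) and rho = 0.65 (adjusted p = 0.0545) in LCM but r = -0.44 (adjusted p = 0.193) and rho = -0.37 (adjusted p = 0.296) in whole lung samples. The club list shares Por and Aldh1a7 with the lists of enzymes above, and no member of the 10 genes is in it. Aldh1a7 is a near copy of Aldh1a1, however, and 7.53% of the read-length windows of the Aldh1a1 transcript also occurred in it. The marker mean is therefore not fully independent of Aldh1a1, which may raise the r and rho of that gene. Its relation to the markers without Aldh1a7 was not tested.

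**Figure D3:**
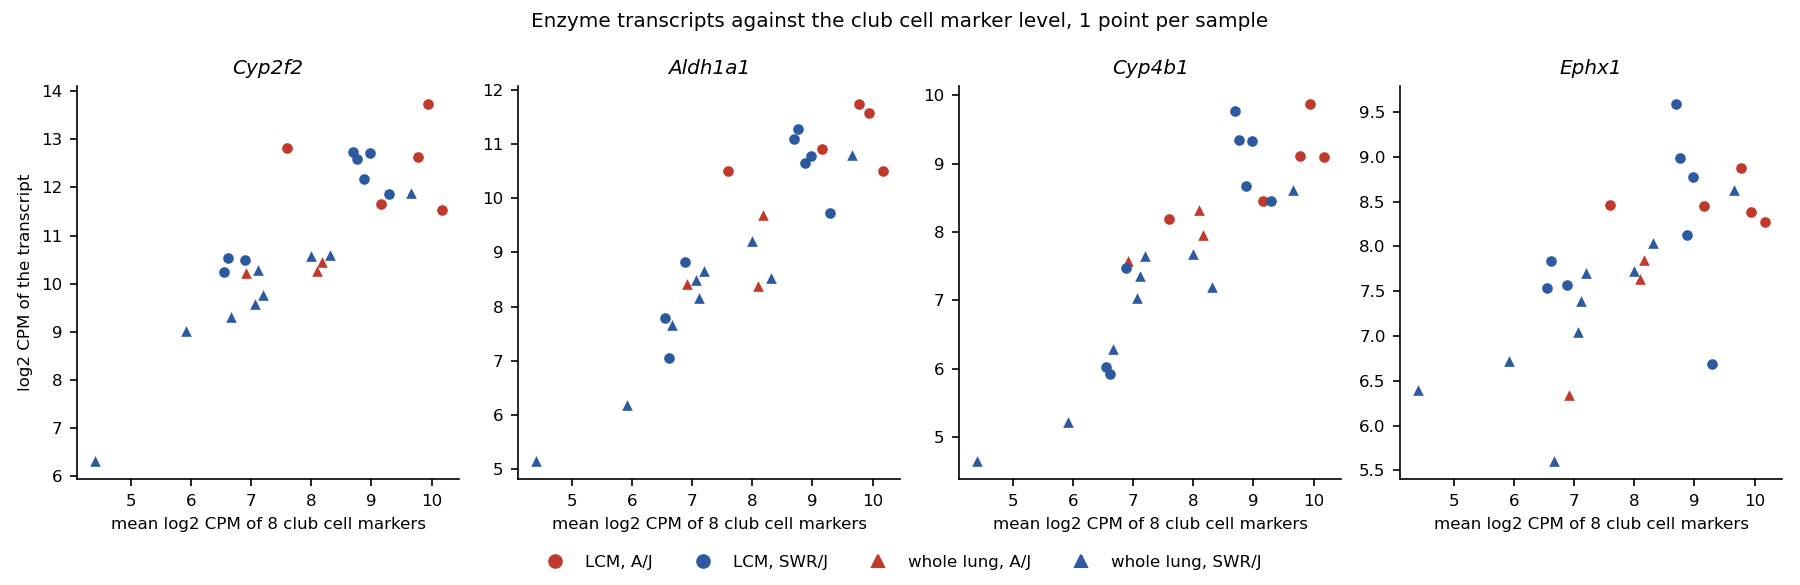
Cyp2f2, Aldh1a1, Cyp4b1 and Ephx1 in log2 CPM (vertical axes) against the mean log2 CPM of 8 club cell markers (horizontal axis), 1 point per sample, with LCM and whole lung samples marked apart. In the whole lung samples r is 0.95 for Cyp2f2 and 0.94 for Aldh1a1, and in the LCM samples 0.68 and 0.83.

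The comparison of histology asked whether the enzymes changed along with the lesions. None of the 10 genes passed the edgeR test between high-grade and normal samples, in a comparison in which 0.0192% of all genes (3) were called. The count at an unadjusted p under 0.05 was 1 of 10 by edgeR (Ephx1), and DESeq2 called 0 of the 10. Cyp2f2 had 11.86, 12.83 and 13.74 in the 3 normal LCM samples and 10.25, 11.54 and 12.74 (lowest, median, highest) in the 7 high-grade LCM samples. In whole lung samples the order of the means was the other way, 9.03 ± 1.87 (SD, n = 4) in normal and 10.11 ± 0.61 (SD, n = 6) in high-grade samples. The groups overlapped in both sample types, and the model difference of Cyp2f2 was -0.29 (SE 0.50, adjusted p = 0.854 by edgeR).

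Ephx1 differed most relative to its error, by 0.78 (SE 0.35, adjusted p = 0.522 by edgeR). It was 6.69, 8.39 and 8.46 in the normal and 8.31 ± 0.75 (SD, n = 7) in the high-grade LCM samples, and 6.44 ± 0.73 (SD, n = 4) and 7.61 ± 0.46 (SD, n = 6) in whole lung samples (normal before high-grade). Cyp1a1 differed by -1.03 (SE 0.89), Cyp2b10 by 0.52 (SE 0.52), Aldh1a1 by 0.48 (SE 0.54), Cyp2e1 by 0.27 (SE 0.87), Cyp4b1 by 0.23 (SE 0.48), Cyp1b1 by 0.20 (SE 0.43), Fmo2 by 0.10 (SE 0.42) and Aldh3a1 by -0.20 (SE 0.69). The median over the 10 genes was 0.22, beside -0.01 over all genes. The values of Aldh3a1 and Cyp2e1 depended on single libraries. Without normal replicate 7, which had the high squamous sum, Aldh3a1 was 1.25 higher in high-grade samples (adjusted p = 0.508), Cyp2e1 differed by -0.11, Cyp2b10 by 1.44 (adjusted p = 0.316) and Ephx1 by 1.08 (adjusted p = 0.289), none past the edgeR test. Without the 2 samples whose labels disagree, Aldh3a1 differed by 0.51 (adjusted p = 0.810).

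Mild dysplasia had higher fitted values than normal for all 10 genes, but none passed the edgeR test, against 12.4% of all genes called. The median over the 10 genes was 1.23, beside -0.02 over all genes. The signs and the share called depended on the model. Without strain and sample type as terms, Cyp1a1 (-0.57) and Aldh3a1 (-0.14) were lower in mild samples, and 0 of all genes were called. Aldh3a1 was also lower without median TIN (-0.44). Cyp1b1 was lower in fits of the LCM samples alone (-0.053) and of the whole lung samples alone (-0.28), in which 0 of all genes were called. Fmo2, the main flavin monooxygenase of rodent lung, had values of 8.42, 8.54 and 8.71 in mild LCM and 7.88 and 8.63 in mild whole lung samples. In normal samples it had 6.15, 7.31 and 8.98 in LCM and 4.80, 4.98, 7.64 and 8.51 in whole lung. The mild samples were close to each other and lay within the range of the normal ones, which was wide. The fitted difference was 1.82 (SE 0.63, adjusted p = 0.0570 by edgeR).

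Ephx1 had 8.12, 8.77 and 8.99 in mild LCM and 7.05 and 8.63 in mild whole lung samples, and 6.69, 8.39 and 8.46 in normal LCM and 5.60, 6.35, 6.40 and 7.39 in normal whole lung samples. Its difference was 1.30 (SE 0.46, adjusted p = 0.0645 by edgeR). Aldh1a1 differed by 1.75 (SE 0.73, adjusted p = 0.104 by edgeR), and its 2 mild whole lung values, 8.49 and 10.80, were above all 4 normal whole lung values, the highest of which was 8.42. DESeq2 called these 3 genes, with adjusted p = 0.0105 for Fmo2, 0.0220 for Ephx1 and 0.0436 for Aldh1a1, and edgeR had the same 3 at an unadjusted p under 0.05. Without normal replicate 7, edgeR called Fmo2 (2.30, adjusted p = 0.0182) and Ephx1 (1.48, adjusted p = 0.0379), and without normal replicate 8 and severe replicate 2 the adjusted p-values were 0.112 and 0.107. Without the 2 samples whose labels disagree, Fmo2 differed by 1.71 (adjusted p = 0.104) and Ephx1 by 1.34 (adjusted p = 0.0858) in the edgeR fit.

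The other 7 genes differed between mild and normal by 1.68 (Cyp2e1, SE 1.01), 1.62 (Cyp1a1, SE 1.09), 1.17 (Cyp2b10, SE 0.77), 1.11 (Cyp4b1, SE 0.65), 1.04 (Cyp2f2, SE 0.68), 0.98 (Aldh3a1, SE 1.26) and 0.06 (Cyp1b1, SE 0.54). All mild samples were SWR/J, and in the 4 SWR/J normal samples the Cyp2f2 values were 11.86 in LCM and 6.32, 9.30 and 10.29 in whole lung. Moving with this comparison, all 5 T cell markers were lower in mild samples (Cd8b1 with adjusted p = 0.0271 by edgeR, Cd8a by -8.40, Cd3e by -5.15, Cd3g by -5.33), with the sums given above. The club marker Gabrp (2.56), the alveolar type 1 marker Pdpn (1.57) and 3 of 6 fibroblast markers were higher, and the 8 ciliated markers had a median of 1.85 with none called. Their part in the values of the 10 genes was not tested.

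Of the 95 other enzymes, 4 rose and 1 fell in mild dysplasia, a smaller share than the 12.4% called among all genes. The Ah receptor gene Ahr rose by 1.82 (SE 0.45, adjusted p = 0.0215 by edgeR), while its targets Cyp1a1 and Cyp1b1 did not pass the test. The cytochrome b5 reductase gene Cyb5r3 rose by 1.39, Sult1d1 by 2.61, Akr1c18 rose too (adjusted p = 0.0471), and Rxrb, the partner of nuclear receptors, fell by 0.52. In high-grade against normal samples none of the 95 was called by edgeR, and those with the smallest p were the retinal dehydrogenase gene Aldh1a3 (2.27, adjusted p = 0.337) and Gstm3 (-2.33, adjusted p = 0.365).

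High-grade samples had lower fitted values than mild ones for 9 of the 10 genes, and none passed the edgeR test, where 0.326% of all genes were called. The unadjusted p was under 0.05 for 2, Fmo2 with -1.72 (SE 0.57, adjusted p = 0.0986) and Cyp1a1 with -2.65 (SE 1.08, adjusted p = 0.156). DESeq2 was not run for this contrast. Because mild samples were shared with the comparison above, the values are not independent of it. With grade as a rank, edgeR called 0 of the 10 genes, with 0 at an unadjusted p under 0.05, against 0.262% of all genes, and DESeq2 called 0. The largest changes per step were -0.57 for Cyp1a1 (SE 0.37) and -0.47 for Cyp2e1 (SE 0.48). Among the other enzymes, the sulfotransferase gene Sult1c1 rose by 1.49 per step (SE 0.31, adjusted p = 0.0375 by edgeR).

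Whether the high-grade difference was the same in LCM and whole lung, or in A/J and SWR/J, was tested as an interaction. Both tests called 0% of all genes by edgeR, and 0 of the 10 genes had an unadjusted p under 0.05. DESeq2 was not run for them. For Cyp2f2 the high-grade difference was lower in LCM than in whole lung by 0.90 (log2 difference -0.90, SE 0.81) and lower in A/J than in SWR/J (-1.32, SE 0.93). For Cyp1a1 the corresponding values were -1.48 (SE 1.37) and -2.66 (SE 1.53, adjusted p = 0.970).

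Cyp2e1 was close to 0 in both CIS/SCC samples. The LCM sample (replicate 1) had 7 counts, 0.498 CPM, and the whole lung sample (replicate 4) had 1 count, 0.106 CPM. In the other 23 samples Cyp2e1 lay between 9.10 and 388 CPM, so these 2 samples did not overlap with any other. Both were A/J at 20 µmol, and no other sample had that strain and dose. The same 2 samples had the lowest sums over 4 fat cell markers, 2.21 and 0.424 CPM, against 19.7 to 2026 CPM elsewhere. The part of fat tissue in the Cyp2e1 level was not tested.

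Over the LCM samples (n = 13) Cyp2e1 followed the mean log2 CPM of the fat markers with r = 0.92 and rho = 0.54, and over the whole lung samples (n = 12) with r = 0.79 and rho = 0.66. Without the 2 samples farthest from the median of the markers, r was 0.24 and 0.26, so the relation rested on those samples. For 4 liver markers r was -0.17 and rho 0.04 in LCM, and r was 0.57 and rho 0.38 in whole lung samples. Without the 2 samples farthest on the liver markers r was 0.48 and 0.64. The 2 samples were taken for each marker list apart, so the fat and liver values without them are not over the same samples and cannot be ranked. The liver sum was low in most samples, with a median of 3.69 CPM over all 25. These pairings were chosen after the values were seen and are given as a description. The highest Cyp2e1 value, 388 CPM, was in moderate/severe replicate 13, the library with liver transcripts, and Cyp2e1 is among the most abundant P450 genes of liver. The next highest was 233 CPM in a mild LCM sample, whose 4 liver markers summed to 5.85 CPM. With replicate 13 left out, the difference between LCM and whole lung was 0.51 (SE 0.64) in place of -0.04. In LCM, the mild samples had 6.48, 7.01 and 7.87 log2 CPM and the normal ones 3.29, 5.15 and 5.50, without overlap, while in whole lung samples mild (4.25 and 7.01) and normal (3.22 to 6.44) overlapped.

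**Figure D4:**
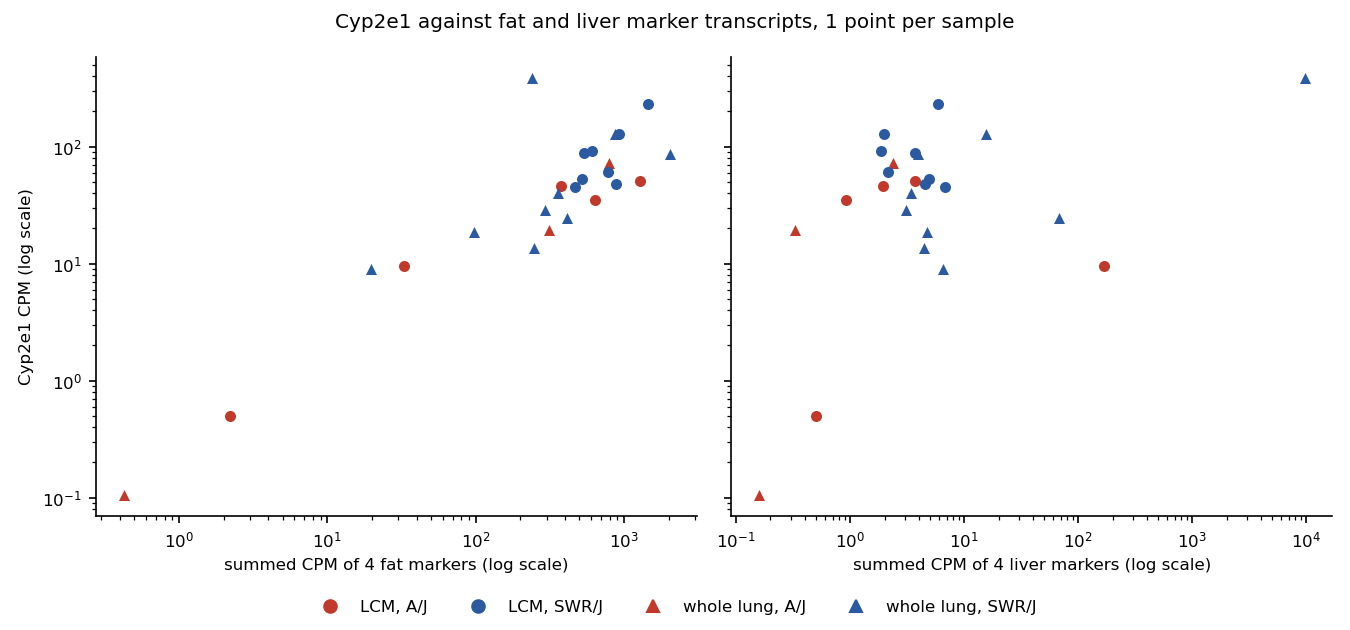
Cyp2e1 in CPM (vertical axis, log scale) against the summed CPM of 4 fat cell markers and of 4 liver markers (horizontal axes, log scale), 1 point per sample. The 2 CIS/SCC samples lie at 0.498 and 0.106 CPM with fat sums of 2.21 and 0.424 CPM, and moderate/severe replicate 13 lies at 388 CPM with a liver sum of 9673 CPM.

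Aldh3a1, which oxidises aromatic and lipid-derived aldehydes and is abundant in squamous and corneal epithelium, was the gene most divided among normal whole lung samples. In 3 of them it had 2.34, 2.47 and 2.70 log2 CPM, and in normal replicate 7 it had 8.83, the highest of all 25 samples. That library also had the highest sum of squamous markers. The 6 high-grade whole lung samples lay between 4.91 and 7.52, above 3 of the 4 normal ones. The 3 normal LCM samples had 5.32, 6.11 and 8.54, and the 7 high-grade LCM samples 5.75 to 8.04, and these ranges overlapped.

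Aldh3a1 followed the 6 basal cell markers (Krt5, Krt14, Krt15, Trp63, Ngfr, Dapl1) with r = 0.63 and rho = 0.83 in LCM and with r = 0.84 and rho = 0.85 in whole lung samples, and without the 2 farthest samples r was 0.68 and 0.77. For the 8 squamous markers r was 0.32 in LCM and 0.81 in whole lung samples, and rho was 0.45 and 0.83. Without the 2 farthest samples r was 0.62 and 0.70. These are descriptions, since the lists were paired with Aldh3a1 after its values were seen, and the part of squamous or basal cells in its level was not tested. The squamous markers summed to 5.33 to 105938 CPM in normal, 76.6 to 2734 CPM in mild and 353 to 45332 CPM in high-grade samples, and the basal markers to 74.5 to 3741, 209 to 4282 and 456 to 6007 CPM. Of the squamous markers 0 of 8 and of the basal markers 0 of 6 were called by edgeR between high-grade and normal samples.

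Cyp1a1 had the largest difference between strains among the 10 genes. In A/J normal samples it had 10.5 and 0.758 CPM in LCM and 11.1 CPM in whole lung. In SWR/J normal samples it had 0.187 CPM in LCM and 0, 0.433 and 1.07 CPM in whole lung. A/J moderate/severe samples had 1.23 and 3.23 CPM in LCM and 4.30 CPM in whole lung, and the CIS/SCC samples had 0.285 and 1.38 CPM. All 3 A/J values lay above the SWR/J mean within the normal and within the moderate/severe samples, and the strains overlapped in both grades.

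Counts of Cyp1a1 were low. The highest was 141, and 10 of 25 samples had fewer than 3 counts. In 4 SWR/J samples, moderate/severe replicates 4, 5 and 7 (LCM) and normal replicate 6 (whole lung), the count was 0, which allows levels of up to 0.224 to 0.498 CPM (3 counts per library, counting error only). Over all samples Cyp1a1 was 1.38 ± 1.62 (SD, n = 8) in A/J and -0.39 ± 1.42 (SD, n = 17) in SWR/J on the log2 scale. The model difference was 3.59 (SE 1.09, adjusted p = 0.110 by edgeR), with 0 of the 10 genes and 0.992% of all genes called between strains. DESeq2 called it (3.84, adjusted p = 0.0117), and without median TIN in the model edgeR called it too (3.07, adjusted p = 0.0163). Median TIN differed between the strains, with 53.7 to 69.6 in A/J and 21.7 to 75.1 in SWR/J samples. Its part in the strain difference was not tested beyond these fits.

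Mild SWR/J samples had Cyp1a1 at 3.17, 0.351 and 0.263 CPM in LCM and at 1.47 and 4.37 CPM in whole lung, so levels above 1 CPM also occurred in SWR/J. Cyp1b1, the second Ah receptor target, was 3.68 ± 0.93 (SD, n = 8) in A/J and 3.65 ± 0.94 (SD, n = 17) in SWR/J, with a model difference of -0.55 (SE 0.54). Of the other Ah receptor axis genes none was called between strains by edgeR, and Ahr had an adjusted p of 0.104.

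**Figure D5:**
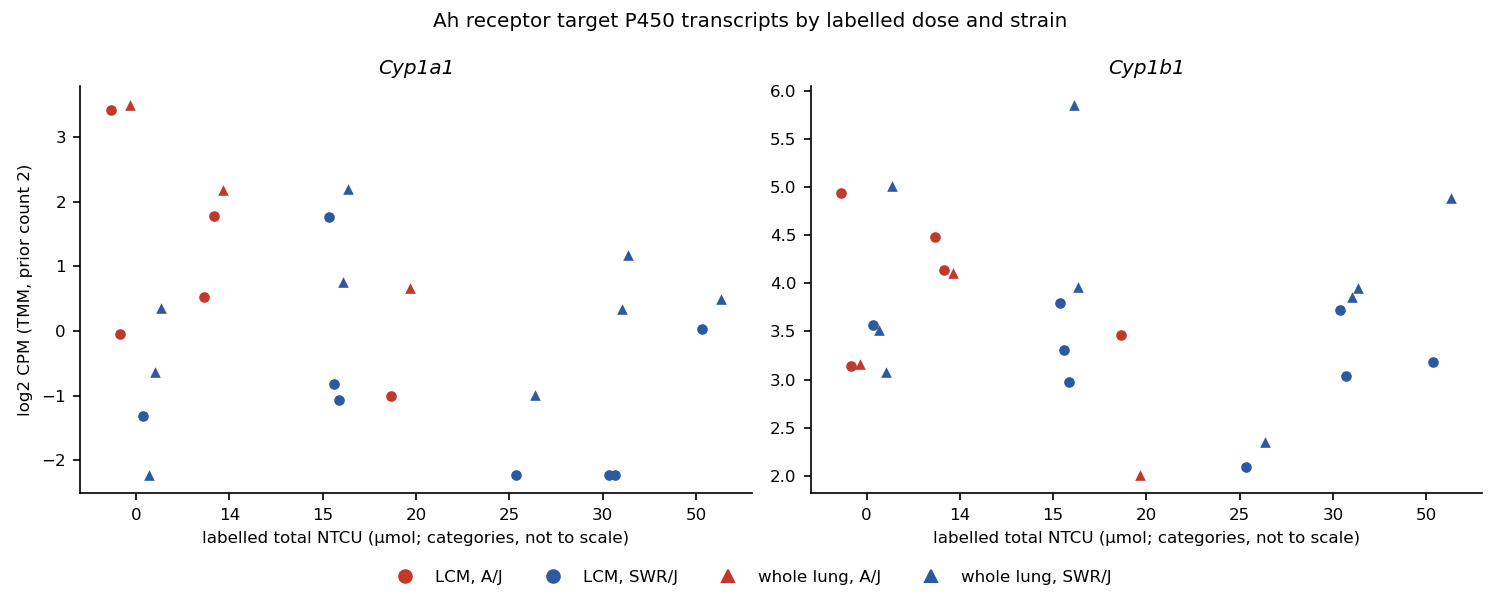
Cyp1a1 and Cyp1b1 in log2 CPM (vertical axes) against the labelled total dose of NTCU in µmol (horizontal axis, categories not to scale), 1 point per sample, with strain and sample type marked. Cyp1a1 is highest in A/J normal samples at 0 µmol (3.42 in LCM and 3.50 in whole lung) and lowest, at -2.22, in 4 SWR/J samples without a count.

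Fmo2 was 8.04 ± 0.55 (SD, n = 8) in A/J and 7.22 ± 1.31 (SD, n = 17) in SWR/J samples. Its model difference was 1.62 (SE 0.61, adjusted p = 0.187 by edgeR and 0.0469 by DESeq2). The lowest A/J sample had 7.31, and the SWR/J samples ran from 4.80 to 8.71, so that the strains overlapped. The other differences between A/J and SWR/J were 1.33 for Aldh3a1 (SE 1.15), 1.19 for Cyp2b10 (SE 0.73), 1.05 for Aldh1a1 (SE 0.72), 1.03 for Cyp2f2 (SE 0.67), 0.83 for Cyp4b1 (SE 0.63), 0.47 for Ephx1 (SE 0.45) and -0.31 for Cyp2e1 (SE 0.97), none past the edgeR test. Cyp1a1 and Fmo2 were the 2 genes with an unadjusted p under 0.05, and DESeq2 called the same 2. The median over the 10 genes was 1.04, beside 0.02 over all genes and 1.51 over the 8 club markers, of which 0 were called. None of the 95 other enzymes was called between strains by edgeR.

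By dose, edgeR called 0 of the 10 genes and had 0 at an unadjusted p under 0.05, against 0.0064% of all genes, and DESeq2 called 0. Per 10 µmol the largest values were -0.28 for Cyp2e1 (SE 0.39), -0.19 for Cyp2f2 (SE 0.20) and 0.19 for Cyp1b1 (SE 0.12). Dose and grade were tied in these samples and cannot be told apart. At 50 µmol, the highest dose, the severe samples had Cyp2f2 at 10.25 in LCM, the lowest LCM value, and at 9.03 in whole lung, where only normal replicate 8 was lower. Aldh1a1 was at 7.78 and 6.19 and Cyp4b1 at 6.02 and 5.23 in the same samples, which were below the means of their sample types. Their club marker sums, 1550 and 2293 CPM, were the lowest of the LCM samples and the second lowest of the whole lung samples. Median TIN was 21.7 in the LCM sample, the lowest of all 25 samples, and 33.9 in the whole lung sample. The LCM sample, severe replicate 2, also stood apart in the overall profile. The levels of these samples are not adjusted for TIN, and the part of RNA quality in them was not tested.

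A set of 6 genes moved together across samples. With median TIN, strain and sample type removed, the 15 pairs among Cyp2f2, Cyp2b10, Cyp4b1, Aldh1a1, Fmo2 and Ephx1 had r from 0.63 to 0.92 (median 0.80), and the other 30 pairs from -0.26 to 0.63 (median 0.21). These 6 genes were set apart after their values were seen, so the split is a description. The closest pair was Cyp4b1 with Aldh1a1. Within LCM the 15 pairs had r from 0.59 to 0.94 (median 0.76). The other 30 pairs there ran from -0.42 to 0.76 (median 0.21), so the 2 sets of pairs overlapped. Within whole lung the 15 pairs had r from 0.66 to 0.96 (median 0.83) and the other 30 from -0.49 to 0.63 (median 0.03).

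The 3 genes of the whole table most like each of them by this r over the 25 samples were named as a description. For Cyp2f2 they were the carbonyl reductase gene Cbr2 (0.94), the aldehyde oxidase gene Aox3 (0.92) and Aldh1a1 (0.90). For Cyp4b1 they were Gipc2 (0.93), Aldh1a1 (0.92) and 4833427G06Rik (0.92), for Aldh1a1 Acsm1, Ccdc96 and BC051019 (0.94 each), and for Cyp2b10 Cyp4b1 (0.91), Selenbp2 (0.89) and 1110012J17Rik (0.88). Fmo2 was closest to Fam84b (0.93), Gramd2 (0.93) and Dusp18 (0.92), and Ephx1 to the cyclin gene Ccnd1 (0.90), Rnase4 (0.89) and Gpx8 (0.86).

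The remaining 4 genes had other neighbours. Cyp2e1 was closest to Car3 (0.91) and Cfd (0.89), both abundant in fat cells, and to Twist1 (0.87). Aldh3a1 was closest to the epithelial genes Rab25 (0.94), Ckmt1 (0.93) and Barx2 (0.91). Cyp1b1 was closest to Tnfrsf13c (0.82), Bank1 (0.81) and Ms4a1 (0.81), which are B cell genes. Cyp1a1 was closest to Rnf144a (0.85), Nipal3 (0.81) and Gulp1 (0.80).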

How the data were processed

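RNA from LCM and whole lung samples was sequenced from libraries made with an unstranded kit. The authors deposited expected counts per gene, which they made, according to the submitters' processing notes, with Trimmomatic, STAR in 2 passes and RSEM on mm9. The study marked 15 of 40 samples as failed, and these entered only alternatives. The deposited expected counts were rounded, and 15630 of 37310 genes with an interquartile range above 0 and a sum above 1 of the log2 CPM were kept. No column was left without a sample (0 columns).

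Genes were tested with edgeR 4.0.16 in R 4.3.3 (TMM factors, robust quasi-likelihood fit) with terms for histology, strain, sample type and median TIN, and DESeq2 1.42.0 was an alternative. The grade rank and the dose replaced histology in fits of their own. Adjusted p-values are Benjamini-Hochberg values over all genes, with a threshold of 0.05. Permutation tests used scipy 1.17.1 in Python 3.11.15. The fitting code was tested on simulated data. Other settings changed the filter, the normalisation, the terms and the samples, and left out each sample in turn.

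The 10 genes, the lists and the tests were chosen with earlier results of these data known. The 10 genes were always named. Of each list at most 4 genes a comparison were named, taken from the called genes with the smallest p, or at most 2 where none was called, and for each of the 10 genes the 3 nearest genes by Pearson's r over the 25 samples were named after regression on TIN, strain and sample type. Cyp2e1 was set against fat and liver markers, and Aldh3a1 against basal and squamous markers, after their values were seen. Gene positions came from the NCBIM37 annotation and promoters from RefSeq on GRCm38.p6, and the builds were not mixed. Depth ran from 2667390 to 16534700 expected counts, and limits from counts cover counting error only.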

Additional observations from a re-analysis of the deposited data

Results flagged for a closer look

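Of 30 groups of 4 to 10 samples examined, 4 had a highest or lowest sample far from the rest of its grade. Chance flags about 1 in 20 groups of like samples. These groups pooled LCM with whole lung samples, so the 4 flags cannot be read against that rate. Cyp2e1 was 8.60 log2 CPM in whole lung SWR/J replicate 13 of the moderate/severe samples, and the next highest of the 9 was 6.53. That library held the liver transcripts. Cyp2b10 was 4.31 in LCM SWR/J replicate 7 of the moderate/severe samples, and the next lowest was 6.41. In the 5 mild samples, whole lung replicate 3 was the lowest for Cyp2f2 with 9.58, where the next was 11.88, and for Aldh1a1 with 8.49. The cause of these values was not tested.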

How the results depend on the processing

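No paired analysis was possible because the labels carry no replicate numbers that pair the groups. The number of genes called over the whole table moved with the model and with the samples used. For high-grade against normal (3 genes) it was 97 with DESeq2, 1 without a low-count filter, 5 without median TIN, 1 without strain and sample type, 0 in LCM, in whole lung or in SWR/J samples alone, and 5 with all 40 samples. For mild against normal (1945) it was 3624 with DESeq2, 0 without strain and sample type and 0 in LCM or whole lung samples alone, 995 without the samples whose labels disagree, 1 with all 40 samples and 932 without normal replicate 8 and severe replicate 2, an alternative chosen after seeing the data, as was leaving out single samples for sample type and strain. For LCM against whole lung (2279) it was 565 in SWR/J samples. For strain (155) it was 955 with DESeq2, 254 without a filter, 2493 without median TIN and 340 in the grades of both strains. For the rank (41) it was 545 with DESeq2 and 182 without median TIN or without strain and sample type. For dose (1) it was 50 with DESeq2, 3 with filterByExpr, 12 without median TIN, and 0 without strain and sample type, in treated samples alone or in SWR/J samples alone. Leaving out each sample gave 0 to 6 genes for high-grade, 643 (without mild replicate 4) to 3117 (without normal replicate 5) for mild, 1372 (without moderate/severe replicate 5) to 2554 for LCM and 95 (without moderate/severe replicate 4) to 401 (without moderate/severe replicate 11) for strain. The cause of these shifts was not tested.

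Of the 10 genes, Aldh1a1 lost its LCM call without normal replicates 3 or 9, mild replicates 3 or 5, moderate/severe replicate 5 or CIS/SCC replicate 4 (1.18 to 1.52 in these refits) and without the normal group (1.27, adjusted p = 0.134). Ephx1 lost it without normal replicates 5, 9 or 10, mild replicates 1, 3 or 5, moderate/severe replicates 5, 10 or 14, severe replicate 4 or CIS/SCC replicate 4 (0.62 to 0.92), without the normal group (0.77, adjusted p = 0.119) and without a low-count filter (0.89, adjusted p = 0.0562). Cyp4b1 gained one without normal replicate 7 (1.32), moderate/severe replicates 4 (1.31) or 7 (1.37), severe replicate 2 (1.40), or both samples that stand apart (1.27), and Cyp1a1 without normal replicate 5 (-2.22). For mild against normal, Fmo2 was called without normal replicates 5 (2.18) or 7 (2.30), moderate/severe replicates 5 (2.07) or 11 (1.91) or severe replicate 2 (1.93), and Ephx1 without normal replicates 5 (1.40) or 7 (1.48) or moderate/severe replicate 5 (1.57). Cyp1a1 was called between strains without moderate/severe replicate 11 (4.08, adjusted p = 0.0460).

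Signs turned only in values that were not called. For high-grade these were Aldh3a1 (0.24 in LCM, 0.56 in whole lung, 0.26 in SWR/J, 0.51 without disagreeing labels, 0.47 with all 40 samples), Cyp1b1 (-0.26 without TIN, -0.36 in LCM), Cyp1a1 (0.073 in whole lung), Cyp2f2 (0.40 in whole lung, 0.26 in SWR/J) and, with all 40 samples, Cyp2e1 (-0.27), Cyp4b1 (-0.95), Cyp2b10 (-0.25), Fmo2 (-0.16) and Aldh1a1 (-0.87). For mild these were Aldh3a1 (-0.44 without TIN, -0.14 without strain and sample type), Cyp1a1 (-0.57 without strain and sample type) and Cyp1b1 (-0.053 in LCM, -0.28 in whole lung, -0.18 with all 40 samples). For LCM they were Cyp2e1 (0.072) and Fmo2 (0.035) without the samples that stand apart, and Fmo2 without strain (0.056). For strain they were Aldh3a1 (-0.27) and Cyp1b1 (0.36) without TIN and Cyp2e1 (0.14) in the grades of both strains. For the rank they were, without TIN and without strain and sample type in that order, Aldh3a1 (0.032 and 0.020, and 0.0052 without the samples that stand apart), Cyp1b1 (-0.17 and -0.016) and Cyp4b1 (-0.037 and -0.016, and -0.0024 with DESeq2 and -0.0023 with RLE factors). For dose they were Cyp1b1 without TIN (-0.053), Aldh3a1 (0.019), Cyp2b10 (-0.34) and Ephx1 (-0.35) in treated samples and Cyp2b10 in SWR/J samples (-0.0083). Leaving out single samples, values ran from -0.40 to 1.25 for Aldh3a1, -0.22 to 0.55 for Cyp2e1, -0.11 to 0.52 for Cyp4b1 and -0.074 to 0.82 for Fmo2 in high-grade samples, from -0.28 to 0.31 for Cyp1b1 in mild samples, from -0.22 to 0.51 for Cyp2e1, -0.023 to 0.67 for Cyp2b10 and -0.30 to 0.17 for Fmo2 between sample types, and from -0.68 to 0.21 for Cyp2e1 between strains. Of the other settings, 525 values kept their direction and their side of the threshold. Low counts limit Cyp1a1 most.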

Other observations

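The 15 samples marked as failed, 12 LCM and 3 whole lung, entered only the fits with all 40 samples, and the levels given here were not scaled by TMM. Cyp1a1 had 0 counts in all 15. No limit was computed for these zeros, so they do not show a lower level than in the passed samples. Cyp2f2 was still detected in each of the 15, with a median of 4274 CPM (73.4 to 14184) in LCM and 636 CPM (232 to 697) in whole lung samples. Aldh1a1 had medians of 883 and 68.5 CPM, Cyp4b1 of 328 and 47.2 CPM, Ephx1 of 199 and 113 CPM, and Aldh3a1 of 134 and 284 CPM, with LCM before whole lung.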
